A study of Mus musculus with 35 samples.

Results

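The data described here are the expression levels of 9 genes of the bHLH-PAS family of transcription factors, Arnt, Arnt2, Hif1a, Epas1, Ahr, Ahrr, Clock, Npas2 and Arntl, among 49671 genes counted in cultured mouse blood progenitors. The genes were taken by name with earlier results of these data known, so counts of members and list genes called are not a blind test. Arnt2 was chosen on its measured fall in a single comparison, G-NHA9 against the empty vector. Its values in any comparison with these conditions are therefore a description without a test. Tests of Arnt2 are restricted to comparisons among the other constructs. All 9 genes passed the filter on low counts and were among the 17166 genes tested.

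Proteins of the bHLH-PAS family bind DNA in pairs. A basic helix-loop-helix region contacts the DNA, and PAS domains help the partners to pair and, in some members, bind small molecules. Class I members (HIF-1α, HIF-2α, the aryl hydrocarbon receptor AHR, CLOCK and NPAS2) respond to a signal or keep time, and class II members (ARNT, ARNT2 and BMAL1, the product of Arntl) are the partners that complete the pair. HIF-1α and HIF-2α carry the transcriptional response to low oxygen, AHR responds to aromatic ligands and is restrained by AHRR, and the pair of CLOCK or NPAS2 with BMAL1 drives the circadian clock. In blood, Hif1a and Ahr are expressed in progenitors and myeloid cells, whereas Arnt2 is best known from neurons.

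RNA was sequenced from 7 conditions with 5 libraries each. Lineage-negative bone marrow cells of C57Bl/6 mice were transduced with lentivirus and sorted for fluorescence. They were grown for 1 week in methylcellulose with myeloid and erythroid growth factors and 10 ng/mL GM-CSF. The mice were labelled 8 weeks old except for 1 library each at 9, 10 and 11 weeks. Those at 9 and 10 weeks were empty vector libraries 4 and 5, and that at 11 weeks was G-NHA9 library 1. For these libraries age cannot be told apart from condition and library number, and its part was not tested. The control was the empty vector (Empty, mCherry alone). The constructs, each with mEGFP at the N-terminus, were G-NHA9, a fusion of the FG-rich disordered part of the nucleoporin NUP98 with the homeodomain part of HOXA9 that arises by translocation in acute leukaemia (G-NHX9 in the labels); G-NHA9–8FA, with phenylalanines of some FG motifs changed to alanine (G-NHX9-8FA); G-NHA9–21FGAA, with many more FG pairs changed to alanine (G-NHX9-21FGAA); G-NHA9Midi, with a shortened NUP98 part (G-NHX9-midi); G-NHA9Midi–21FGAA, the short form with the same FG changes (G-NHX9-midi-21FGAA); and G-NHA9–ΔDNA, with a homeodomain mutated to bind DNA weakly (G-NHX9-DDNA). Overexpression from a lentivirus and the mixed colonies that grow in methylcellulose limit these cultures as a model. Nothing in the labels says which libraries came from separate animals or cultures, so p-values measure the spread between these libraries, which may be technical. The methods of the study describe transduction in triplicate, whereas each condition has 5 libraries here, and how the libraries relate to those transductions is not given in the sources used.

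Libraries held 31559914 to 75810659 counts, so a gene with no count in a library can have had up to 0.0396 to 0.0951 CPM (counting error only, from library totals without TMM factors). All other CPM are counts scaled to the library total with TMM factors, which were 0.899 to 1.11. Hoxa9, whose homeodomain part the constructs carry, was at 0.693 to 1.26 CPM in Empty and at 79.3 to 113 CPM in G-NHA9. Its level was 28.5 to 41.5 CPM in G-NHA9–8FA, 25.5 to 44.4 CPM in G-NHA9Midi and 16.9 to 23.0 CPM in G-NHA9–ΔDNA, but 1.00 to 5.15 CPM in G-NHA9–21FGAA and 0.242 to 2.18 CPM in G-NHA9Midi–21FGAA. Reads from the gene and from a construct cannot be told apart. Libraries that share a number differed from their condition means together (mean r = 0.232 between conditions, against -0.057 for libraries with other numbers). Those numbered 4 and 5 also resembled each other across conditions (mean r = 0.156) more than they did those numbered 1 to 3 (mean r = -0.129). Member calls that were lost or gained without the libraries numbered 4 and 5, an alternative chosen after seeing the data, are given beside the values.

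The 2 partner genes that the results turn on, Arnt and Arnt2, lie on different chromosomes, and the sequences just upstream of their starts are printed to show the regulatory context of the gene that moved most beside that of its paralog. Arnt spans chr3:95434388-95497240 on the plus strand and Arnt2 spans chr7:84246278-84410176 on the minus strand of GRCm38 (mm10). Both are protein-coding genes in GENCODE M21. The sequences, from RefSeq promoter windows on GRCm38.p6, stop before the most upstream annotated start and are given 5′ to 3′ on the strand of the gene, with GCGTG or ACGTG on either strand in capitals. The Arnt stretch covers chr3:95434140-95434387 and the Arnt2 stretch chr7:84410177-84410288.
Arnt: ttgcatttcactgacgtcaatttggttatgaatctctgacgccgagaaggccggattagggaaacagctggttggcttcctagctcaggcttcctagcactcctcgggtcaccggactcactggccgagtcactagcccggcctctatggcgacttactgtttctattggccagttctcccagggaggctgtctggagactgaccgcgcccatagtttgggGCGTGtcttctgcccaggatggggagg
Arnt2: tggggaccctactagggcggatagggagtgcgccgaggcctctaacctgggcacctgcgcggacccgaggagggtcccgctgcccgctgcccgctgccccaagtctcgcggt

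Windows of 300 bases, from 250 before to 50 after a start, were on file for 7 of the 9 genes (Epas1 and Ahr had none). Searched on both strands, the core that HIF pairs bind, ACGTG, occurred in 19.6% of 32851 mouse promoter windows. The core that AHR pairs bind, GCGTG, occurred in 32.4%. The E-box that CLOCK pairs bind, CACGTG, occurred in 7.15%. Each E-box holds the HIF core on both strands and so counts at 2 HIF core positions. The Hif1a window held the HIF core at 3 positions, 2 of them within its 1 E-box, and the Npas2 window held 1 HIF core and 1 AHR core. The AHR core was found 3 times in the Ahrr window, 1 time in the Arnt window and 1 to 2 times in 2 of the 3 Clock windows. The Arnt2 window and both Arntl windows held none of these letters.

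Arnt2, the paralog of Arnt, was far lower with 3 of the constructs than in the control. In Empty its libraries were at 19.5, 28.1, 22.6, 30.1 and 28.6 CPM (mean 25.8 ± 4.51, SD, n = 5). With G-NHA9 they were at 1.56, 1.48, 2.58, 1.53 and 1.56 CPM (mean 1.74 ± 0.470), with G-NHA9–8FA at 3.33, 2.65, 2.76, 2.72 and 3.39 CPM (mean 2.97 ± 0.359), and with G-NHA9Midi at 1.02, 0.780, 1.13, 2.03 and 1.55 CPM (mean 1.30 ± 0.494). The libraries of these 3 constructs all lay below every library of the other 4 conditions. G-NHA9–21FGAA stood between, at 16.6, 16.9, 17.0, 10.9 and 11.9 CPM (mean 14.7 ± 2.99), below every Empty library. G-NHA9Midi–21FGAA, at 23.1, 24.4, 19.6, 30.2 and 28.9 CPM (mean 25.2 ± 4.33), overlapped with Empty. G-NHA9–ΔDNA spread most, with 15.4, 12.0 and 14.8 CPM in libraries 1 to 3 and 27.7 and 31.0 CPM in libraries 4 and 5 (mean 20.2 ± 8.53). By mean level the order was Empty, G-NHA9Midi–21FGAA, G-NHA9–ΔDNA, G-NHA9–21FGAA, G-NHA9–8FA, G-NHA9 and G-NHA9Midi, and the ranges of neighbours in this order overlapped except that G-NHA9–8FA lay apart on both sides.

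The fitted log2 fold changes of Arnt2 against Empty, given as a description, were -3.89 ± 0.25 (SE) for G-NHA9, -3.12 ± 0.24 for G-NHA9–8FA, -4.31 ± 0.26 for G-NHA9Midi, -0.81 ± 0.22 for G-NHA9–21FGAA, -0.03 ± 0.22 for G-NHA9Midi–21FGAA and -0.35 ± 0.22 for G-NHA9–ΔDNA. Against G-NHA9 they were 0.77 ± 0.24 for G-NHA9–8FA, -0.42 ± 0.25 for G-NHA9Midi, 3.08 ± 0.25 for G-NHA9–21FGAA and 3.54 ± 0.25 for G-NHA9–ΔDNA. Without libraries 4 and 5, the value for G-NHA9Midi against G-NHA9 was -0.90 and that for G-NHA9–ΔDNA was 2.94.

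**Figure D1:**
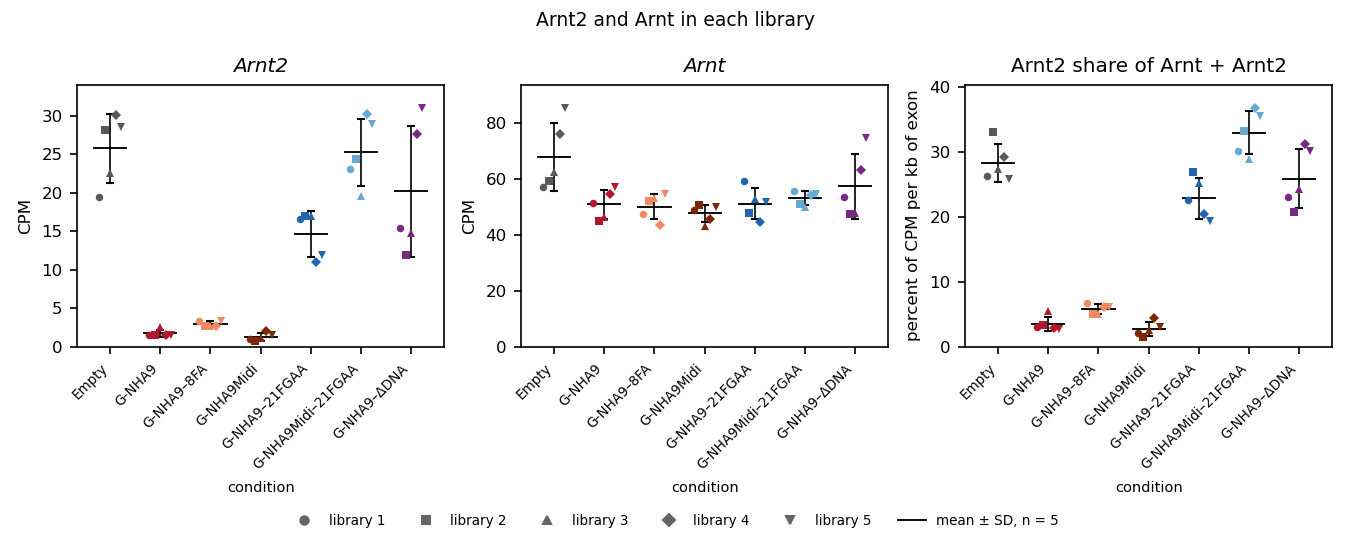
Each panel plots 1 value per library (symbols, numbered as in the labels) for the 7 conditions on the x axis, with the mean and SD of 5 libraries. The left and middle panels give Arnt2 and Arnt in CPM, and the right panel gives the percent that Arnt2 makes up of Arnt plus Arnt2 in CPM per kb of exon. Arnt2 in G-NHA9, G-NHA9–8FA and G-NHA9Midi lay at 0.780 to 3.39 CPM and in the other conditions at 10.9 to 31.0 CPM, while Arnt stayed between 43.4 and 85.4 CPM.

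The comparisons that use neither Empty nor G-NHA9 were tested, and Arnt2 passed the threshold (edgeR's quasi-likelihood test, Benjamini-Hochberg adjusted p under 0.05) in all 4 of them. Arnt2 was 19.4-fold higher in G-NHA9Midi–21FGAA than in G-NHA9Midi (log2 4.28 ± 0.26, adjusted p = 1.5e-14 in edgeR), which have the same length and differ in the FG pairs. In the full-length form it was 4.95-fold higher in G-NHA9–21FGAA than in G-NHA9–8FA (log2 2.31 ± 0.23, adjusted p = 4.06e-09), which differ in how many FG motifs are changed. G-NHA9Midi lay 11.3-fold below G-NHA9–21FGAA (log2 -3.49 ± 0.25, adjusted p = 1.46e-12) and 2.28-fold below G-NHA9–8FA (log2 -1.19 ± 0.25, adjusted p = 0.00311). The compared libraries did not overlap in any of these 4 comparisons. All 4 calls held in each alternative run, with log2 values of 4.15 to 4.50, 2.25 to 2.56, -4.10 to -3.37 and -1.53 to -1.06 in the order given.

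Markers of several cell types also differed between the conditions, in part along with Arnt2. The summed level of 12 mast cell and basophil markers was 1390 to 3750 CPM in Empty, 2750 to 4140 CPM in G-NHA9–ΔDNA, 3530 to 4940 CPM in G-NHA9–21FGAA and 2770 to 6580 CPM in G-NHA9Midi–21FGAA, against 780 to 1090 CPM in G-NHA9, 651 to 1010 CPM in G-NHA9–8FA and 523 to 990 CPM in G-NHA9Midi. The 9 eosinophil markers summed to 1390 to 1930 CPM in Empty, 286 to 1030 CPM in G-NHA9, 77.1 to 298 CPM in G-NHA9–8FA and 44.2 to 129 CPM in G-NHA9Midi, but to 831 to 2690 CPM over the libraries of the other 3 constructs. Megakaryocyte markers (8 genes) summed to 799 to 1440 CPM in Empty, 385 to 923 CPM in G-NHA9, 307 to 386 CPM in G-NHA9–8FA and 144 to 261 CPM in G-NHA9Midi, and to 739 to 2390 CPM in the other 3. Erythroid markers (12 genes) summed to 309 to 870 CPM in Empty, 294 to 774 CPM in G-NHA9, 113 to 154 CPM in G-NHA9–8FA and 139 to 200 CPM in G-NHA9Midi, and to 572 to 2100 CPM in the other 3. With G-NHA9, G-NHA9–8FA and G-NHA9Midi in turn, 7, 9 and 9 of 11 mast cell and basophil markers tested were lower than in Empty. So were 5, 8 and 8 of 9 eosinophil, 4, 8 and 8 of 8 megakaryocyte and 0, 11 and 10 of 12 erythroid markers. With G-NHA9Midi, 1 eosinophil marker was higher. Of all genes tested, 15.2%, 13.2% and 20.0% were lower in these comparisons. The markers did not follow Arnt2 throughout. With G-NHA9, where Arnt2 lay far below Empty, the sums of the erythroid markers overlapped with those of Empty, and with G-NHA9–21FGAA, where Arnt2 also lay below Empty, 4 of 11 mast cell and basophil markers were higher. In the comparison of G-NHA9Midi–21FGAA with G-NHA9Midi, all 11 mast cell and basophil markers tested, all 8 megakaryocyte markers, all 12 erythroid markers and 8 of 9 eosinophil markers were higher, and 1 eosinophil marker was lower. There, 21.0% of all genes tested were higher and 22.2% lower. Neutrophil markers (12 genes) summed to 9030 to 13300 CPM in Empty and to 15800 to 35100 CPM in G-NHA9–8FA, where 8 of 12 were higher, and to 5760 to 22700 CPM in the other conditions. Macrophage markers (10 genes) summed to 2730 to 3550 CPM in Empty, above all libraries of G-NHA9 (1390 to 2440 CPM, 3 of 10 higher and 3 lower), G-NHA9Midi (1320 to 2560 CPM, 7 of 10 lower), G-NHA9–21FGAA (1450 to 2580 CPM) and G-NHA9–ΔDNA (2190 to 2450 CPM), and overlapped with Empty in the other 2 (1610 to 3070 CPM). The stem and progenitor markers of the starting cells (9 genes) summed to 235 to 325 CPM in Empty, 562 to 706 CPM in G-NHA9 (6 of 9 higher and 1 lower) and 473 to 665 CPM in G-NHA9–21FGAA (5 of 9 higher), without overlap with Empty, and to 260 to 671 CPM in the other conditions. Against Empty, 16.9% of all genes tested were higher with G-NHA9, 13.4% with G-NHA9–8FA and 14.7% with G-NHA9–21FGAA. No marker on these lists was at 0 in all libraries of a condition. The part of these cell types in the levels of Arnt2 and the other members was not tested, and in bulk libraries fewer cells of a type and less RNA per cell cannot be told apart.

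Arnt, the general partner of HIF and AHR proteins, varied little. Its libraries were at 57.2, 59.3, 62.5, 76.2 and 85.4 CPM in Empty (mean 68.1 ± 12.2) and at 51.6, 45.2, 46.4, 54.7 and 57.3 CPM in G-NHA9 (mean 51.0 ± 5.20), and the means of the other constructs were 47.8 to 57.5 CPM. In G-NHA9, 4 of 5 libraries lay below all Empty libraries, and Empty was highest in libraries 4 and 5. Against Empty, Arnt fell by 0.51 ± 0.11 (log2) with G-NHA9Midi (adjusted p = 0.000404), by 0.44 ± 0.11 with G-NHA9–8FA (adjusted p = 0.00343), by 0.42 ± 0.11 with G-NHA9 (adjusted p = 0.00435), by 0.41 ± 0.11 with G-NHA9–21FGAA (adjusted p = 0.00664) and by 0.36 ± 0.11 with G-NHA9Midi–21FGAA (adjusted p = 0.0259), all in edgeR. G-NHA9–ΔDNA gave -0.24 ± 0.11 (adjusted p = 0.13). Without libraries 4 and 5 the calls for G-NHA9–8FA (log2 -0.233, adjusted p = 0.0794), G-NHA9–21FGAA (-0.135, adjusted p = 0.341) and G-NHA9Midi–21FGAA (-0.17, adjusted p = 0.254) were lost, as was that for G-NHA9–21FGAA without Empty library 5 alone (-0.30, adjusted p = 0.0515) and that for G-NHA9Midi–21FGAA without Empty library 4 (-0.31, adjusted p = 0.0884), Empty library 5 (-0.25, adjusted p = 0.128) or its own library 3 (-0.34, adjusted p = 0.0606). Library sizes without TMM factors ended the calls for G-NHA9 (-0.235, adjusted p = 0.122), G-NHA9–21FGAA (-0.226, adjusted p = 0.151) and G-NHA9Midi–21FGAA (-0.222, adjusted p = 0.189), whereas leaving out library 5 of G-NHA9–ΔDNA brought that construct past the threshold (-0.355, adjusted p = 0.0197). In no comparison between constructs did Arnt pass.

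Scaled to CPM per kb of exon, so that the paralogs can be compared, Arnt2 made up 28.3% ± 2.94 (SD, n = 5) of the sum of Arnt and Arnt2 in Empty, with libraries at 26.2, 33.0, 27.3, 29.1 and 25.8%. Its share was 3.48% ± 1.13 in G-NHA9, 5.83% ± 0.748 in G-NHA9–8FA and 2.77% ± 1.09 in G-NHA9Midi, with no library above 6.81%. Shares of 22.9% ± 3.15 in G-NHA9–21FGAA, 32.9% ± 3.31 in G-NHA9Midi–21FGAA and 25.9% ± 4.58 in G-NHA9–ΔDNA had no library below 19.4%. The 2 ranges did not overlap, and they rest in part on the contrast for which Arnt2 was picked. Arnt and Arnt2 together came to 11.9 ± 1.97 CPM per kb in Empty and to 6.13 ± 0.372 CPM per kb in G-NHA9Midi, the highest and lowest means.

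Across the family, G-NHA9, G-NHA9–8FA and G-NHA9Midi changed most of the other members. With Arnt2 left aside, 6 of 8 members passed against Empty with G-NHA9 (3 higher and 3 lower), where 32.1% of all genes tested passed (16.9% higher and 15.2% lower). With G-NHA9–8FA, 6 of 8 passed (2 higher and 4 lower), against 26.6% of all genes (13.4% higher and 13.2% lower), and with G-NHA9Midi 6 of 8 (2 higher and 4 lower), against 40.5% (20.5% higher and 20.0% lower). In G-NHA9–21FGAA the count was 4 of 8 (1 higher and 3 lower), against 27.1% (14.7% higher and 12.5% lower). G-NHA9Midi–21FGAA had 2 of 8, both lower, against 16.9% (9.59% higher and 7.32% lower), and G-NHA9–ΔDNA had 1 of 8, lower, against 17.2% (9.85% higher and 7.35% lower). The same control libraries serve all 6 comparisons. With a replicate block, the counts were 4 for G-NHA9Midi–21FGAA and 3 for G-NHA9–ΔDNA, both among the comparisons that the library numbers pair. That block called more of all 17166 genes too. For G-NHA9Midi–21FGAA 2268 were higher and 2084 lower, against 1646 and 1257 in the main fit. For G-NHA9–ΔDNA 2286 were higher and 2011 lower, against 1691 and 1261. Without libraries 4 and 5 the member counts were 3 for G-NHA9–8FA, 2 for G-NHA9–21FGAA and 1 for G-NHA9Midi–21FGAA. Fewer of all genes passed there as well. In the same order, 1332, 1371 and 645 were higher and 1631, 1214 and 721 lower. In the main fit 2298, 2515 and 1646 were higher and 2266, 2145 and 1257 lower. The member count was also 2 for G-NHA9–21FGAA without its own library 5, where 2102 of all genes were higher and 1336 lower. It was 1 for G-NHA9Midi–21FGAA without Empty library 4 or 5 or its own library 3 or 5, and 2 for G-NHA9–ΔDNA without its own library 2 or 5. For G-NHA9Midi–21FGAA without Empty library 4, Empty library 5 or its own library 3, 1119, 1368 and 1311 of all genes were higher. In these runs 892, 1043 and 955 were lower.

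Between constructs, 7 of 8 members passed in G-NHA9–ΔDNA against G-NHA9 (3 higher and 4 lower), where 22.1% of all genes passed (10.7% higher and 11.4% lower), and 5 of 8 passed in G-NHA9–21FGAA against G-NHA9 (1 higher and 4 lower), against 17.2% (8.91% higher and 8.34% lower). In G-NHA9Midi–21FGAA against G-NHA9Midi 6 of 9 passed (4 higher and 2 lower), against 43.2% (21.0% higher and 22.2% lower). In G-NHA9–21FGAA against G-NHA9–8FA 5 of 9 passed, against 32.4%, and in G-NHA9Midi against G-NHA9–21FGAA 4 of 9, against 36.1%. For G-NHA9Midi against G-NHA9 the count was 3 of 8, against 19.7%, and it fell to 1 without G-NHA9 library 4 or without G-NHA9Midi library 2 or 3. The number of all genes called fell there too. From 1459 higher and 1919 lower it went to 979 and 1582, 1215 and 1723, and 1133 and 1601, in that order. Only Arnt2 of 9 passed in G-NHA9Midi against G-NHA9–8FA, against 4.25%. None of the 8 members tested passed edgeR's test in G-NHA9–8FA against G-NHA9, where 14.5% of all genes did. There, 1 of 8 had an unadjusted p under 0.05, DESeq2 called 0, and without G-NHA9–8FA library 4 edgeR called 1. In that run 851 of all genes were higher and 1228 lower, against 1104 and 1380 in the main fit. Arnt2 had no test in this comparison, and its 5 G-NHA9–8FA libraries all lay above those of G-NHA9 (log2 0.77 ± 0.24).

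**Figure D2:**
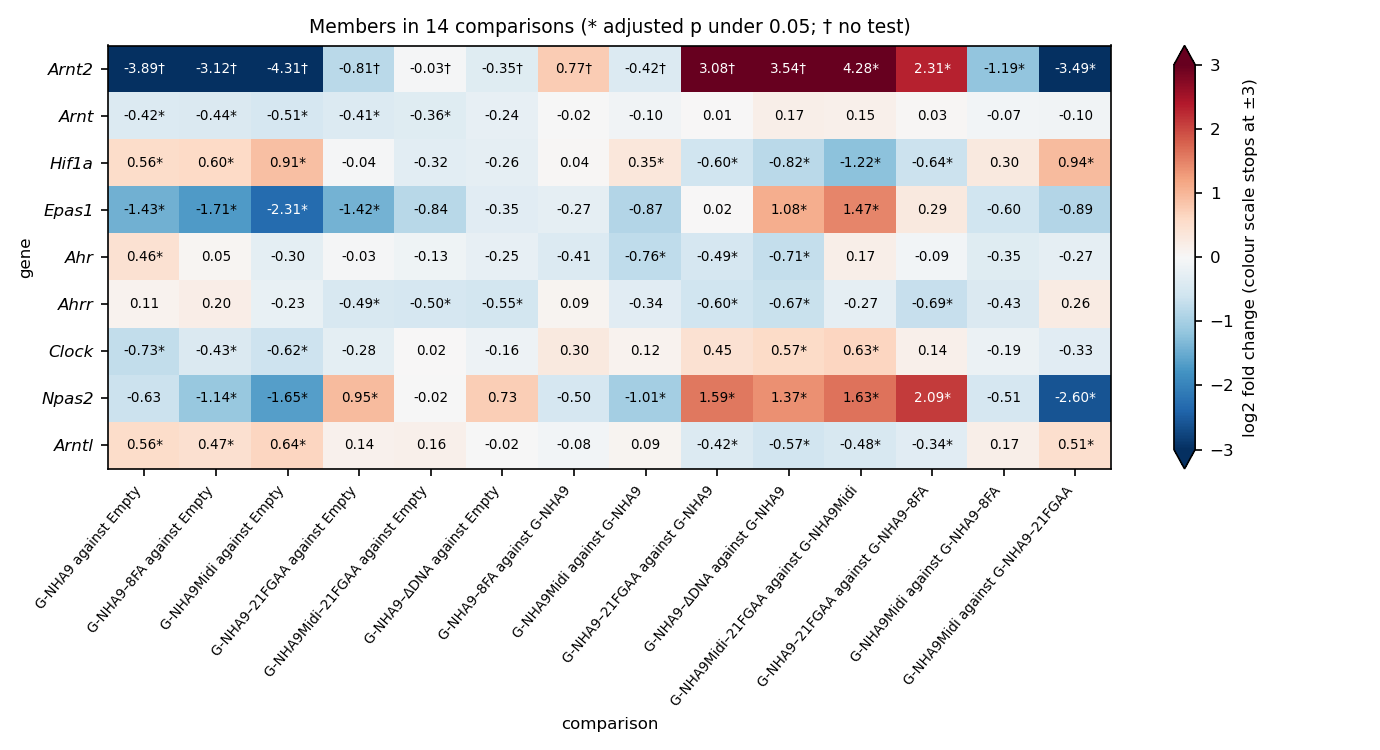
The map gives the log2 fold change of each of the 9 genes (rows) in each of the 14 comparisons (columns), with red for higher and blue for lower in the condition named first. An asterisk marks an adjusted p under 0.05 and a dagger the Arnt2 values that have no test. Hif1a and Arntl were higher, and Clock and Epas1 lower, with G-NHA9, G-NHA9–8FA and G-NHA9Midi against Empty.

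Hif1a, the oxygen-regulated α subunit of HIF-1, was the most abundant member and was higher with the same 3 constructs that had little Arnt2. Its libraries were at 267, 227, 271, 224 and 225 CPM in Empty (mean 243 ± 24.1), at 439, 379, 336, 360 and 275 CPM in G-NHA9 (mean 358 ± 59.9), at 357, 414, 391, 371 and 311 CPM in G-NHA9–8FA (mean 369 ± 38.8) and at 493, 499, 455, 435 and 392 CPM in G-NHA9Midi (mean 455 ± 44.1). Every library of these constructs lay above every Empty library. G-NHA9–21FGAA (mean 236 ± 36.1 CPM), G-NHA9–ΔDNA (203 ± 20.4 CPM) and G-NHA9Midi–21FGAA (195 ± 27.1 CPM) overlapped with Empty. Against Empty, Hif1a rose by 0.56 ± 0.12 (log2) with G-NHA9 (adjusted p = 0.000308), by 0.60 ± 0.12 with G-NHA9–8FA (adjusted p = 0.000162) and by 0.91 ± 0.12 with G-NHA9Midi (adjusted p = 1.42e-07). These 3 calls held in every alternative run.

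Hif1a fell with the 21FGAA changes in both lengths. It was 1.51-fold lower in G-NHA9–21FGAA than in G-NHA9 (log2 -0.60 ± 0.12, adjusted p = 0.000253 in edgeR) and 2.33-fold lower in G-NHA9Midi–21FGAA than in G-NHA9Midi (log2 -1.22 ± 0.12, adjusted p = 3.37e-10). The difference between these 2 effects was 0.625 ± 0.163 (log2, adjusted p = 0.00874), where 12.6% of all genes passed. Hif1a was the only 1 of the 8 members to pass that test, a count near that share. Hif1a was also lower in G-NHA9–ΔDNA than in G-NHA9 (log2 -0.82 ± 0.12, adjusted p = 2.12e-06) and in G-NHA9–21FGAA than in G-NHA9–8FA (log2 -0.64 ± 0.12, adjusted p = 5.66e-05). G-NHA9Midi exceeded G-NHA9 by 0.35 ± 0.12 (adjusted p = 0.0308), a call that was lost without TMM factors, without a filter, in a fit of the 2 conditions, without libraries 4 and 5, and without any 1 of G-NHA9 libraries 3, 4 and 5 or G-NHA9Midi libraries 1, 2 and 3 (log2 0.27 to 0.35, adjusted p 0.0514 to 0.124). With a replicate block Hif1a fell against Empty in G-NHA9Midi–21FGAA (log2 -0.32, adjusted p = 0.00992, against 0.0549 without the block) and in G-NHA9–ΔDNA (-0.26, adjusted p = 0.0294, against 0.119). The former also passed with DESeq2 (adjusted p = 0.0415), with a minimum mean of 1 CPM (adjusted p = 0.0429) and without its own library 1 (log2 -0.37, adjusted p = 0.031).

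Epas1, which encodes HIF-2α, was a low gene and moved against Hif1a with G-NHA9, G-NHA9–8FA and G-NHA9Midi, compared with Empty. With G-NHA9–21FGAA, where Epas1 also fell against Empty, Hif1a did not pass (log2 -0.04 ± 0.12, adjusted p = 0.848 in edgeR). In Empty its libraries were at 2.78, 6.20, 5.80, 13.3 and 12.2 CPM (mean 8.06 ± 4.50), in G-NHA9 at 2.97, 1.74, 2.09, 3.44 and 4.63 CPM (mean 2.97 ± 1.15), and in G-NHA9Midi at 1.60, 0.930, 1.47, 1.79 and 2.27 CPM (mean 1.61 ± 0.486). Libraries 4 and 5 were the highest in Empty, in G-NHA9–ΔDNA (11.8 and 9.90 CPM, against 2.36 to 3.95 CPM in libraries 1 to 3) and in G-NHA9Midi–21FGAA (7.56 and 6.12 CPM, against 2.74 to 3.15 CPM). Only the G-NHA9Midi libraries did not overlap with Empty. Against Empty, Epas1 fell by 2.31 ± 0.42 (log2) with G-NHA9Midi (adjusted p = 3.84e-05), by 1.71 ± 0.41 with G-NHA9–8FA (adjusted p = 0.00186), by 1.43 ± 0.40 with G-NHA9 (adjusted p = 0.00626) and by 1.42 ± 0.40 with G-NHA9–21FGAA (adjusted p = 0.00844). The last of these was lost without libraries 4 and 5 (-0.80, adjusted p = 0.0661). G-NHA9Midi–21FGAA gave -0.84 ± 0.39 (adjusted p = 0.142), and -0.83 with adjusted p = 0.0145 with a replicate block. Epas1 was 2.77-fold higher in G-NHA9Midi–21FGAA than in G-NHA9Midi (log2 1.47 ± 0.41, adjusted p = 0.00416). Its call in G-NHA9–ΔDNA against G-NHA9 (1.08 ± 0.40, adjusted p = 0.0496) was lost in several alternatives, among them without libraries 4 and 5 (0.56, adjusted p = 0.182) and without any 1 of G-NHA9 libraries 1 to 4 or of G-NHA9–ΔDNA libraries 4 and 5 (0.73 to 1.14, adjusted p 0.0675 to 0.23). G-NHA9Midi against G-NHA9–21FGAA gave -0.89 ± 0.41 (adjusted p = 0.0904), which passed without libraries 4 and 5 (-1.05, adjusted p = 0.0107) and in a fit of the 2 conditions (-0.91, adjusted p = 0.0149).

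**Figure D3:**
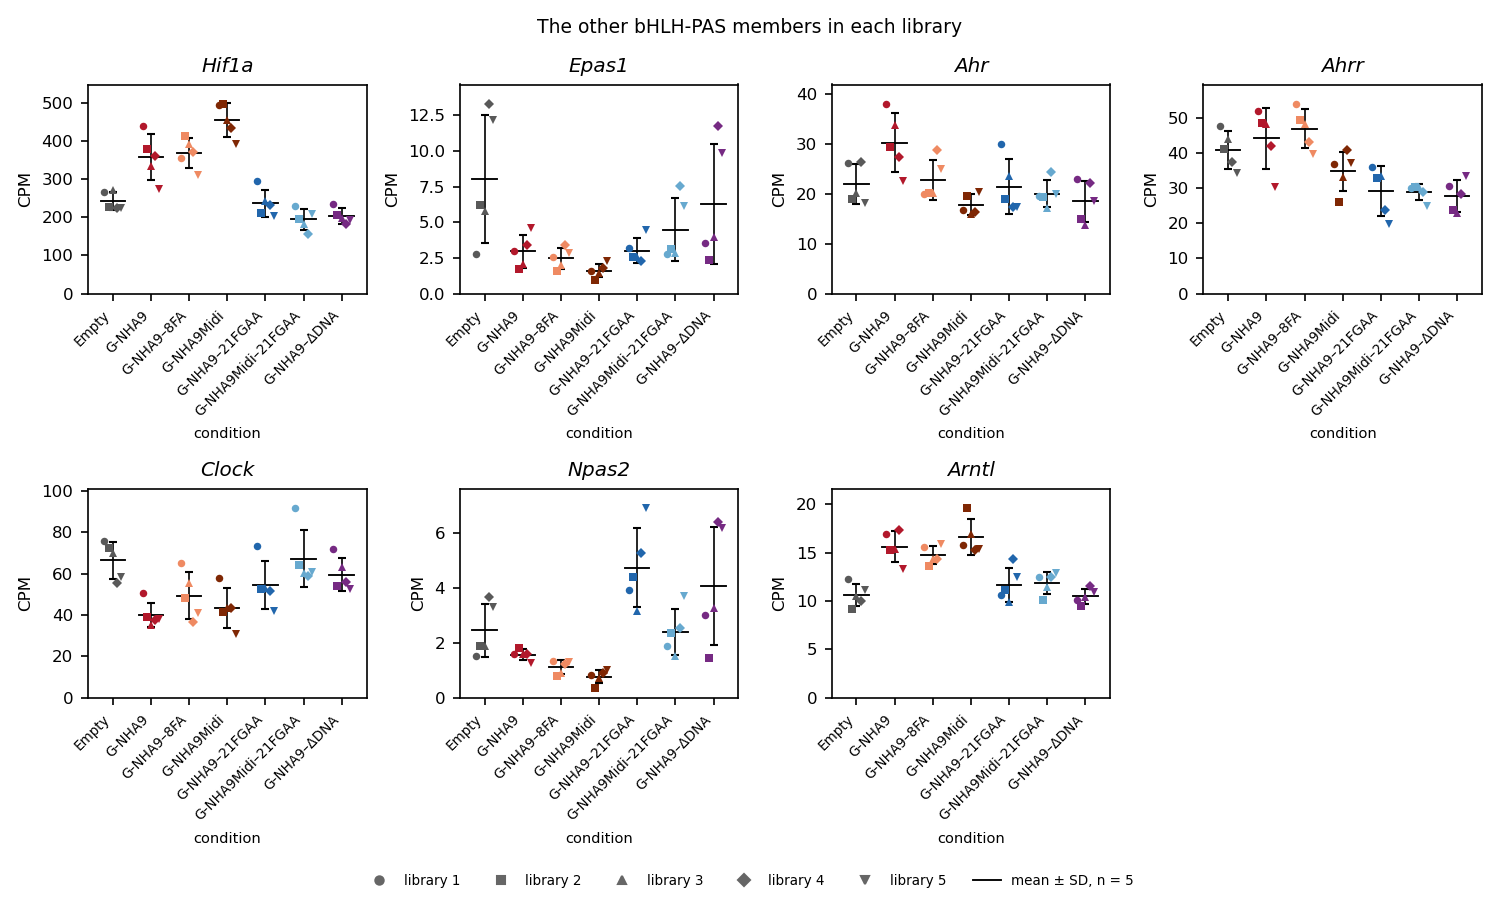
Each panel plots CPM per library (symbols) for the 7 conditions on the x axis, with the mean and SD of 5 libraries, for Hif1a, Epas1, Ahr, Ahrr, Clock, Npas2 and Arntl. Hif1a in G-NHA9, G-NHA9–8FA and G-NHA9Midi (275 to 499 CPM) lay above Empty (224 to 271 CPM), and Epas1 and Npas2 in Empty and G-NHA9–ΔDNA were highest in libraries 4 and 5.

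Ahr, the receptor for aromatic ligands, was highest with G-NHA9. Its libraries were at 26.1, 18.9, 20.0, 26.4 and 18.2 CPM in Empty (mean 21.9 ± 3.99), at 38.1, 29.3, 33.7, 27.3 and 22.6 CPM in G-NHA9 (mean 30.2 ± 5.94) and at 16.8, 19.6, 15.9, 16.4 and 20.4 CPM in G-NHA9Midi (mean 17.8 ± 2.02). All G-NHA9 libraries exceeded all G-NHA9Midi libraries, and 4 of 5 exceeded all Empty libraries. Against Empty, Ahr rose with G-NHA9 (log2 0.46 ± 0.16, adjusted p = 0.0288 in edgeR) and did not pass with the other constructs. That call was lost without Empty library 2, 3 or 5 or G-NHA9 library 1 or 3 (0.365 to 0.424, adjusted p 0.0713 to 0.102). Compared with G-NHA9, the level in G-NHA9–8FA differed by -0.41 ± 0.16 (adjusted p = 0.0902), which passed without libraries 4 and 5 (-0.76, adjusted p = 0.0116), without TMM factors (-0.53, adjusted p = 0.0211) and without G-NHA9–8FA library 4 (-0.52, adjusted p = 0.0444). Also compared with G-NHA9, Ahr was lower in G-NHA9Midi (-0.76 ± 0.16, adjusted p = 0.000984), in G-NHA9–ΔDNA (-0.71 ± 0.16, adjusted p = 0.00164) and in G-NHA9–21FGAA (-0.49 ± 0.16, adjusted p = 0.0324). The last was lost without a filter, in a fit of the 2 conditions, without libraries 4 and 5, and without any 1 of G-NHA9 libraries 1 and 3 or G-NHA9–21FGAA libraries 2, 4 and 5 (-0.48 to -0.40, adjusted p 0.0763 to 0.119).

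Ahrr, which encodes the AHR repressor and is itself a target of AHR, was lower with the 3 constructs that carry 21FGAA or ΔDNA changes and, without libraries 4 and 5, also with G-NHA9Midi. The libraries were at 47.7, 41.3, 44.0, 37.4 and 34.3 CPM in Empty (mean 40.9 ± 5.29), and the means were 44.2 ± 8.58 CPM in G-NHA9 and 47.0 ± 5.64 CPM in G-NHA9–8FA. The lowest means were 29.2 ± 7.06 CPM in G-NHA9–21FGAA, 28.9 ± 2.21 CPM in G-NHA9Midi–21FGAA and 27.9 ± 4.59 CPM in G-NHA9–ΔDNA, and all libraries of the latter 2 lay below Empty. Against Empty, Ahrr fell by 0.49 ± 0.15 (log2) with G-NHA9–21FGAA (adjusted p = 0.0143), by 0.50 ± 0.15 with G-NHA9Midi–21FGAA (adjusted p = 0.0195) and by 0.55 ± 0.15 with G-NHA9–ΔDNA (adjusted p = 0.0106). The first was lost without TMM factors (-0.31, adjusted p = 0.0736) and without its own library 4 (-0.42, adjusted p = 0.0525) or 5 (-0.35, adjusted p = 0.0831), and the second without its own library 5 (-0.45, adjusted p = 0.06). Compared with G-NHA9, it fell by 0.60 ± 0.15 in G-NHA9–21FGAA (adjusted p = 0.00403, and 0.0552 in a fit of the 2 conditions) and by 0.67 ± 0.15 in G-NHA9–ΔDNA (adjusted p = 0.00125). G-NHA9Midi (mean 34.9 ± 5.56 CPM) gave -0.23 ± 0.15 against Empty (adjusted p = 0.225), -0.34 ± 0.15 against G-NHA9 (adjusted p = 0.106) and -0.43 ± 0.15 against G-NHA9–8FA (adjusted p = 0.102). Without libraries 4 and 5 all 3 of these passed (-0.446, adjusted p = 0.00413; -0.612, adjusted p = 0.000933; and -0.634, adjusted p = 0.00125). The comparison with G-NHA9 also passed without G-NHA9 library 5 (-0.449, adjusted p = 0.031) and without TMM factors (-0.394, adjusted p = 0.0339).

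Clock and its partner gene Arntl moved in opposite directions. Clock was at 75.6, 72.5, 70.0, 55.6 and 58.3 CPM in Empty (mean 66.4 ± 8.91) and at 50.5, 39.0, 35.4, 37.4 and 37.9 CPM in G-NHA9 (mean 40.0 ± 5.98), without overlap. Library 1 was the highest in all 7 conditions. Against Empty, Clock fell by 0.73 ± 0.16 (log2) with G-NHA9 (adjusted p = 0.000682), by 0.62 ± 0.16 with G-NHA9Midi (adjusted p = 0.00251) and by 0.43 ± 0.16 with G-NHA9–8FA (adjusted p = 0.0456). The last was lost without TMM factors, without a filter, without libraries 4 and 5, and without any 1 of Empty libraries 1 to 3 or G-NHA9–8FA libraries 2, 4 and 5 (-0.44 to -0.36, adjusted p 0.057 to 0.175). Clock was higher in G-NHA9Midi–21FGAA than in G-NHA9Midi (0.63 ± 0.16, adjusted p = 0.00176) and in G-NHA9–ΔDNA than in G-NHA9 (0.57 ± 0.16, adjusted p = 0.00913). For G-NHA9–21FGAA against G-NHA9 the value was 0.45 ± 0.16 (adjusted p = 0.0531), and 0.43 with adjusted p = 0.000314 with a replicate block. That comparison also passed with DESeq2, RLE size factors, no TMM factors, a minimum mean of 1 CPM, without libraries 4 and 5, and without G-NHA9 library 1 or G-NHA9–21FGAA library 5 (0.45 to 0.55, adjusted p 0.0215 to 0.0494). G-NHA9Midi against G-NHA9–21FGAA gave -0.33 ± 0.16 (adjusted p = 0.108), which passed without TMM factors (-0.39, adjusted p = 0.045), without G-NHA9–21FGAA library 5 (-0.43, adjusted p = 0.0487) and without G-NHA9Midi library 1 (-0.46, adjusted p = 0.0299).

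Arntl, which encodes BMAL1, had the smallest standard errors of the 9 genes. It was at 12.3, 9.14, 10.5, 10.0 and 11.2 CPM in Empty (mean 10.6 ± 1.18), at 17.0, 15.3, 15.3, 17.3 and 13.3 CPM in G-NHA9 (mean 15.6 ± 1.61), at 15.6, 13.7, 14.3, 14.4 and 15.9 CPM in G-NHA9–8FA (mean 14.8 ± 0.960) and at 15.8, 19.7, 17.0, 15.2 and 15.4 CPM in G-NHA9Midi (mean 16.6 ± 1.82). All libraries of these 3 constructs exceeded all Empty libraries, and the remaining means were 10.5 to 11.9 CPM. Against Empty, Arntl rose by 0.56 ± 0.10 (log2) with G-NHA9 (adjusted p = 6.5e-05), by 0.475 ± 0.101 with G-NHA9–8FA (adjusted p = 0.00058) and by 0.64 ± 0.10 with G-NHA9Midi (adjusted p = 4.55e-06). It was lower in G-NHA9Midi–21FGAA than in G-NHA9Midi (-0.48 ± 0.10, adjusted p = 0.000216), and, compared with G-NHA9, in G-NHA9–ΔDNA (-0.57 ± 0.10, adjusted p = 6.45e-05) and G-NHA9–21FGAA (-0.42 ± 0.10, adjusted p = 0.00281). Without TMM factors Arntl also rose against Empty with G-NHA9–21FGAA (0.32, adjusted p = 0.0219 in edgeR) and G-NHA9Midi–21FGAA (0.30, adjusted p = 0.0446). Arntl was lower in G-NHA9–21FGAA than in G-NHA9–8FA (-0.34 ± 0.10, adjusted p = 0.00981). That call was lost without TMM factors (adjusted p = 0.167), without a filter (0.0882) and in a fit of the 2 conditions (0.0693).

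Npas2, a paralog of Clock that pairs with BMAL1 as CLOCK does, was a low gene that rose with the 21FGAA changes in both lengths. Its libraries were at 1.54, 1.88, 1.90, 3.69 and 3.31 CPM in Empty (mean 2.46 ± 0.965), at 1.58, 1.80, 1.60, 1.61 and 1.27 CPM in G-NHA9 (mean 1.57 ± 0.188) and at 3.91, 4.39, 3.17, 5.27 and 6.92 CPM in G-NHA9–21FGAA (mean 4.73 ± 1.44). In G-NHA9Midi they were at 0.837, 0.360, 0.736, 0.909 and 1.01 CPM (mean 0.771 ± 0.250), below all libraries of every condition except G-NHA9–8FA (0.787 to 1.35 CPM). Npas2 was higher in G-NHA9–21FGAA than in G-NHA9 (log2 1.59 ± 0.32, adjusted p = 0.000352), 4.25-fold higher than in G-NHA9–8FA (2.09 ± 0.32, adjusted p = 6.46e-06) and 3.09-fold higher in G-NHA9Midi–21FGAA than in G-NHA9Midi (1.63 ± 0.33, adjusted p = 0.000135). Against Empty it rose with G-NHA9–21FGAA (0.95 ± 0.31, adjusted p = 0.0201), and it fell with G-NHA9Midi (-1.65 ± 0.33, adjusted p = 0.000142) and G-NHA9–8FA (-1.14 ± 0.32, adjusted p = 0.00838). The rise was lost without Empty library 1 or 2 or G-NHA9–21FGAA library 5 (0.80 to 0.89, adjusted p 0.0505 to 0.0716), and the fall with G-NHA9–8FA was lost without libraries 4 and 5 (-0.815, adjusted p = 0.0778). G-NHA9–ΔDNA exceeded G-NHA9 by 1.37 ± 0.32 (adjusted p = 0.00154), which was 0.65 (adjusted p = 0.127) without libraries 4 and 5. Against Empty, G-NHA9–ΔDNA gave 0.73 ± 0.31 (adjusted p = 0.0971), 0.69 with adjusted p = 0.0309 with a replicate block, 0.86 with adjusted p = 0.0492 without TMM factors and 0.95 with adjusted p = 0.0296 without its own library 2. G-NHA9Midi was lower than G-NHA9 (-1.01 ± 0.33, adjusted p = 0.0283), a call lost without G-NHA9 library 2 or 4 or G-NHA9Midi library 2 or 3 (-1.01 to -0.85, adjusted p 0.0519 to 0.0838).

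Of 10 further genes with bHLH-PAS or related PAS architecture, 6 were tested, and Sim1, Sim2, Npas1 and Npas3, which act mainly in the nervous system, were too low, at 0 to 0.385 CPM in every library. The coactivator gene Ncoa1 fell with G-NHA9Midi (log2 -0.87 ± 0.15, adjusted p = 1.1e-05), G-NHA9–8FA (-0.71), G-NHA9 (-0.41 ± 0.14, adjusted p = 0.026) and G-NHA9–21FGAA (-0.41), and Ncoa3 fell with G-NHA9Midi (-0.66 ± 0.14, adjusted p = 0.0004) and G-NHA9–8FA (-0.41). Ncoa2 did not pass in any construct (-0.17 to 0.17). Arntl2, a paralog of Arntl, fell with G-NHA9Midi (-1.18), Npas4 rose with G-NHA9Midi–21FGAA (1.71 ± 0.60, adjusted p = 0.0462) from a level of 0 to 0.337 CPM in Empty to 0.109 to 0.809 CPM, and Hif3a rose with G-NHA9–ΔDNA (1.77 ± 0.58, adjusted p = 0.0328) and G-NHA9 (1.91 ± 0.58, adjusted p = 0.0113). The Npas4 call was lost with a minimum mean of 1 CPM, in a fit of the 2 conditions, without libraries 4 and 5, and without any 1 of Empty libraries 1 to 4 or its own libraries 1, 3, 4 and 5. The Hif3a call with G-NHA9–ΔDNA was lost with that minimum and without any 1 of Empty libraries 1 to 3 or its own libraries 1, 4 and 5. The Ncoa1 call with G-NHA9–21FGAA was lost without TMM factors, without a filter, and without any 1 of Empty libraries 4 and 5 or its own libraries 2, 4 and 5. In G-NHA9, Hif3a was at 3.46 CPM in library 5 and at 0.319 to 0.791 CPM in libraries 1 to 4. Of the 2 calls with G-NHA9, 1 was lost without TMM factors, without a filter, with that minimum and in a fit of the 2 conditions. The same held without libraries 4 and 5, Empty library 4 or 5, or G-NHA9 library 3. With G-NHA9–8FA, 1 of 2 calls was lost without TMM factors, a filter, libraries 4 and 5, Empty library 4 or 5, or its own library 3 or 4.

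Genes that act on HIF proteins or respond to them were counted from lists chosen with earlier results of these data known. Of 10 regulators, the prolyl hydroxylase gene Egln1 alone passed, with G-NHA9–8FA (log2 -0.44 ± 0.14, adjusted p = 0.0193) and G-NHA9Midi (-0.38 ± 0.14, adjusted p = 0.0331). No regulator passed with G-NHA9–8FA in a fit of the 2 conditions, without libraries 4 and 5, or without Empty library 5 or its own library 1, nor with G-NHA9Midi in a fit of the 2 conditions, without a filter, or without Empty library 5 or any 1 of its own libraries 1 to 4. Without Empty library 1 or without library 5 of the construct, 3 regulators passed with each of these constructs. The other 9, among them Vhl and Egln3, passed in no construct, and in the 4 constructs with no regulator called by edgeR none had an unadjusted p under 0.05 and DESeq2 called none. With a replicate block 1 regulator passed with G-NHA9, where 3502 of all genes tested were higher and 3393 lower. Of 25 HIF target genes, all tested, 15 passed with G-NHA9Midi (2 higher and 13 lower) and 10 with G-NHA9–8FA (1 higher and 9 lower), whereas with G-NHA9 9 passed (5 higher and 4 lower). With G-NHA9–21FGAA 8 passed (6 higher and 2 lower), with G-NHA9–ΔDNA 8 (7 higher and 1 lower) and with G-NHA9Midi–21FGAA 6 (4 higher and 2 lower). The median log2 fold changes of the targets were 0.03, -0.19, -0.32, 0.24, 0.18 and 0.27 for G-NHA9, G-NHA9–8FA, G-NHA9Midi, G-NHA9–21FGAA, G-NHA9Midi–21FGAA and G-NHA9–ΔDNA, beside -0.02 to 0.03 for all genes tested. Of all genes tested, 40.5% passed with G-NHA9Midi (20.5% higher and 20.0% lower) and 26.6% with G-NHA9–8FA (13.4% higher and 13.2% lower). With G-NHA9 32.1% passed, with G-NHA9–21FGAA 27.1%, with G-NHA9–ΔDNA 17.2% and with G-NHA9Midi–21FGAA 16.9%. The target counts with G-NHA9 and G-NHA9–21FGAA were near those shares, and the regulator counts were not above them in any construct.

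Among the targets, Adm (adrenomedullin) fell with G-NHA9Midi (log2 -3.68 ± 0.53, adjusted p = 1.06e-06) from 0.432 to 1.96 CPM in Empty to 0.0267 to 0.150 CPM, a level near that of a few counts. Ankrd37 fell by 1.04 ± 0.23 with the same construct. Vegfa, the vascular growth factor gene, rose by 1.09 ± 0.19 (adjusted p = 2.6e-05) and Ddit4 by 0.64 ± 0.21 with the same construct. With G-NHA9, the mitophagy receptor gene Bnip3l (-0.69 ± 0.09, adjusted p = 4.19e-07), the glycolytic regulator gene Pfkfb4 (-0.60 ± 0.10) and the collagen prolyl hydroxylase gene P4ha1 (-0.43 ± 0.10) fell, and Ddit4 (0.89 ± 0.21), Vegfa (0.56 ± 0.19) and Ero1l (0.42 ± 0.14) rose. The glycolytic genes Ldha and Eno1 and the glucose transporter gene Slc2a3 rose with all 3 constructs that carry 21FGAA or ΔDNA changes, a set chosen after the values were seen. This pattern did not hold for all 3 genes with G-NHA9Midi–21FGAA without libraries 4 and 5 or without Empty library 2. In each of these runs 1 HIF target passed with that construct. Without libraries 4 and 5 the counts of HIF targets were 5 with G-NHA9–8FA, 5 with G-NHA9–21FGAA and 1 with G-NHA9Midi–21FGAA, and leaving out Empty library 2 gave 5 with G-NHA9–21FGAA, 1 with G-NHA9Midi–21FGAA and 4 with G-NHA9–ΔDNA. The numbers of all genes called without libraries 4 and 5 are those given above for the members. Without Empty library 2, 2285, 1331 and 1269 of all genes were higher and 1724, 869 and 768 lower, in the same order.

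Of 12 AHR partner and target genes, 11 were tested (Cyp1a2 was too low). Counts were 5 with G-NHA9 (4 higher and 1 lower), 1 with G-NHA9–8FA (higher), 4 with G-NHA9Midi (2 higher and 2 lower), 5 with G-NHA9–21FGAA (3 higher and 2 lower), 3 with G-NHA9Midi–21FGAA (1 higher and 2 lower) and 4 with G-NHA9–ΔDNA (2 higher and 2 lower). In the same order, 32.1, 26.6, 40.5, 27.1, 16.9 and 17.2% of all genes tested passed, so that the counts with G-NHA9–8FA and G-NHA9Midi were not above the share of all genes. With a replicate block the count with G-NHA9 was 8, and without Empty library 2 or 4 it was 3. That block called 3502 of all genes tested higher and 3393 lower with G-NHA9, against 2894 and 2617 in the main fit. Without Empty library 2 these were 2512 and 2402, and without Empty library 4 they were 2566 and 2626. The chaperone genes Hsp90ab1 (log2 0.47 ± 0.11, adjusted p = 0.000834) and Ptges3 (0.34 ± 0.09, adjusted p = 0.003), which hold AHR ready to bind its ligand, rose with G-NHA9, as did Hsp90aa1 (0.75 ± 0.26), while Nfe2l2 fell (-0.39 ± 0.11). Of the AHR target genes, Cyp1b1 (-1.09 ± 0.26, adjusted p = 0.00107) and Nqo1 (-0.89 ± 0.17, adjusted p = 6.16e-05) fell with G-NHA9Midi. Cyp1a1, the classical AHR target, was low throughout (0.117 to 1.33 CPM) and rose with G-NHA9 (0.98 ± 0.32, adjusted p = 0.0184). It was named after its values were seen.

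Of 20 further clock genes, 19 were tested, and their counts were 5 with G-NHA9 (3 higher and 2 lower), 6 with G-NHA9–8FA (3 higher and 3 lower), 9 with G-NHA9Midi (5 higher and 4 lower), 3 with G-NHA9–21FGAA (all lower), 3 with G-NHA9Midi–21FGAA (all lower) and 5 with G-NHA9–ΔDNA (1 higher and 4 lower). Of all genes tested, 32.1, 26.6, 40.5, 27.1, 16.9 and 17.2% passed in these comparisons, and the counts with G-NHA9, G-NHA9–21FGAA and G-NHA9Midi–21FGAA were not above those shares. With a replicate block the counts were 9 with G-NHA9 and 7 with G-NHA9Midi–21FGAA, and without Empty library 2 or 3 they were 3 with G-NHA9 and 3 with G-NHA9–ΔDNA. All genes called with that block were 3502 higher and 3393 lower with G-NHA9, and 2268 and 2084 with G-NHA9Midi–21FGAA. Without Empty library 2 or 3 they were 2512 and 2402, or 2594 and 2408, with G-NHA9. With G-NHA9–ΔDNA they were 1269 and 768, or 1340 and 789. Bhlhe41 (DEC2), a repressor of CLOCK and BMAL1, fell by 1.91 ± 0.24 (log2) with G-NHA9 (adjusted p = 2.1e-07) and by 2.18 ± 0.24 with G-NHA9Midi (adjusted p = 1.09e-08). Rora, an activator of Arntl, fell by 1.08 ± 0.17 with G-NHA9 (adjusted p = 6.53e-06) and by 0.81 ± 0.17 with G-NHA9Midi (adjusted p = 0.000175). Hlf, a gene of the clock output family that is also on the stem and progenitor marker list, rose by 1.47 ± 0.27 with G-NHA9 (adjusted p = 6.35e-05) and by 2.20 ± 0.27 with G-NHA9Midi (adjusted p = 5.09e-08). Ciart, a repressor in the same loop, rose by 0.61 ± 0.24 and 0.98 ± 0.23, while Per2 rose with G-NHA9 (0.45 ± 0.16, adjusted p = 0.0318) and Per1 fell with G-NHA9Midi (-1.09 ± 0.36, adjusted p = 0.0157). Bhlhe40 rose with G-NHA9Midi (0.43 ± 0.11). No time of day of collection is in the labels.

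**Figure D4:**
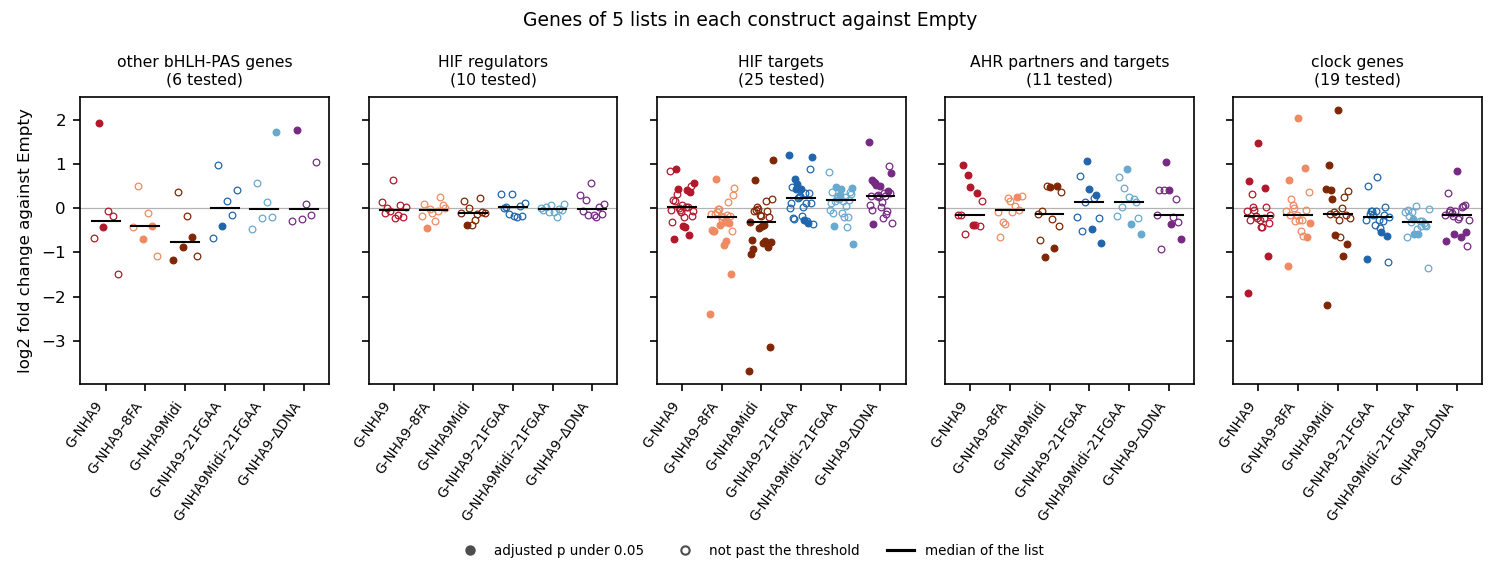
Each point is 1 gene of a list, placed by its log2 fold change against Empty (y axis) for the construct named on the x axis, filled where the adjusted p was under 0.05, with a bar at the median of the list. The HIF regulators stay near 0, the HIF targets reach -3.68 with G-NHA9Midi, and their medians are -0.32 with that construct and 0.27 with G-NHA9–ΔDNA.

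The genes whose log2 CPM followed that of Arnt2 most closely over the 35 libraries, among 12774 genes averaging 1 CPM or more, were Dapk1 (Pearson r = 0.979), Ttc39b (0.973), Slc39a2 (0.969), Sulf2 (0.968), Gm20658 (0.966), Tcaf1 (0.962), Ptgfrn (0.962) and Slco2b1 (0.957). The most opposed were Eml4 (-0.969), Pfn2 (-0.960) and Pomgnt2 (-0.956). These values describe 7 condition means more than 35 independent points, and 123 genes had r over 0.9 and 55 had r under -0.9. Within conditions, over deviations from the condition means, the same genes had r of 0.186 (Tcaf1) to 0.648 (Slco2b1) and -0.683 (Eml4) to -0.307 (Pfn2). Mean levels of Dapk1, which encodes a death-associated protein kinase, were 62.3 CPM in Empty, 11.2 CPM in G-NHA9, 8.28 CPM in G-NHA9Midi and 65.6 CPM in G-NHA9Midi–21FGAA. Pfn2, a profilin gene, went from 1.03 CPM in Empty to 11.3 CPM in G-NHA9 and 35.8 CPM in G-NHA9Midi, and was at 0.931 CPM in G-NHA9Midi–21FGAA.

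Of the genes annotated on top of the members, those that were counted were low. An antisense gene, Gm30873 (Gm44556 in the counts), shares 2.78% of the exon bases of Arnt2 and was at 0 to 0.0556 CPM. Gm15283, antisense to Hif1a, was at 0.0183 to 0.618 CPM, and Gm45355, antisense to Arntl, at 0 to 0.144 CPM. Gm49321 on the strand of Hif1a and Gm48236 antisense to Ahr share 2.51% and 2.06% of the exon bases of these genes and, like AC096777.1 on the strand of Epas1, were not analysed here. Gm43658 lies on the strand of Clock without sharing its exon bases and was at 0.762 to 2.58 CPM.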

How the data were processed

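Per the labels and the methods of the study, RNA was sequenced from 35 libraries, and the authors deposited raw read counts per gene. The submitters' processing notes name STAR 2.7.0d, HTSeq 0.11.2, DESeq2 and the mm10 build; the annotation, strand setting and handling of reads that match paralogs are not given in the sources used here. The members and lists were chosen with earlier results of these data known.

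Counts were analysed with edgeR 4.0.16 in R 4.3.3: filterByExpr, TMM factors, a mean per condition over all 35 libraries, and the quasi-likelihood test with Benjamini-Hochberg adjustment within each of 14 comparisons (threshold 0.05). Fold changes are log2 with SE. CPM use TMM library sizes, and CPM per kb use GENCODE M21 exon lengths, whose identifiers matched 99.3% of the counted genes (88.1% with the same version). The fit was tested on simulated data for G-NHA9Midi against Empty. Named genes were all members, the other bHLH-PAS genes at any level, genes annotated on top of members, Hoxa9, and the 8 most and 3 least like Arnt2. Of each remaining list they were up to 3 genes that rose and 3 that fell most with G-NHA9 and with G-NHA9Midi, averaging 1 CPM or more. Exceptions are marked where they are named, apart from Vhl, Egln3 and Cyp1a2, which were also named outside this rule. A gene that this rule names is not reported here. Marker lists were used for summed levels and counts of calls.

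Library numbers in the labels are shared by all conditions. Deviations from condition means of all 5 same-numbered pairs correlated above 0.1 in 5 comparisons (with Empty as reference, those of G-NHA9, G-NHA9Midi–21FGAA and G-NHA9–ΔDNA, and with G-NHA9 as reference, those of the ΔDNA and 21FGAA forms), where the block is given in the Results. The section on how the results depend on the processing also lists block counts for comparisons that the numbers do not pair in this way. Alternatives were DESeq2 1.42.0, RLE size factors, no TMM, no filter, a mean of at least 1 CPM, a replicate block, the 2 conditions alone and leaving out each library. The test of whether 2 effects differ, and the fit without libraries 4 and 5, were added after seeing the data.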

Additional observations from a re-analysis of the deposited data

Results flagged for a closer look

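In 4 of 63 groups of 5 libraries, 1 library stood apart from the other 4 by Dixon's criterion, which chance alone meets in about 1 of 20 groups. In G-NHA9, Arnt2 was at 2.58 CPM in library 3, against 1.48 to 1.56 CPM in the others, and Clock was at 50.47 CPM in library 1, against 35.4 to 39.0 CPM. In G-NHA9Midi–21FGAA, Clock was at 91.87 CPM in library 1, against 59.0 to 64.4 CPM, and Ahrr at 25.09 CPM in library 5, against 29.0 to 30.3 CPM. Library 1 had the most Clock in all 7 conditions.

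The effect of the 21FGAA changes on Hif1a differed between the lengths of the construct. Hif1a fell by 0.60 ± 0.12 (log2, SE) in the full-length form and by 1.22 ± 0.12 in the short form, a difference of 0.625 ± 0.163 (edgeR's quasi-likelihood test, adjusted p = 0.00874). The test was added after seeing the data. Of all genes tested, 12.6% passed it, and Hif1a alone of the members tested did, a count near that share.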

How the results depend on the processing

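The 4 tested Arnt2 values and the Hif1a difference kept their direction and call in all alternatives run. The replicate block changed no other member call in the 5 comparisons that the numbers pair than those given in the report. The cause of the changes was not tested. Member counts without overlap rest on 5 libraries a condition, and genes near 1 CPM (Npas2, Epas1, Arnt2 in 3 conditions) have the widest errors. Comparisons without a named reference are with Empty. The numbers of all genes called moved with the setting too, so a moved count below need not be particular to its list. In fits of the 2 conditions alone, members called were 1 for G-NHA9Midi–21FGAA (from 2) and 3 for G-NHA9–21FGAA against G-NHA9 (from 5), other bHLH-PAS genes called were 1 for G-NHA9 (from 2) and 0 for G-NHA9Midi–21FGAA (from 1), HIF regulators called were 0 for G-NHA9–8FA (from 1) and 0 for G-NHA9Midi (from 1), HIF targets called were 4 for G-NHA9–21FGAA (from 8), 3 for G-NHA9Midi–21FGAA (from 6) and 5 for G-NHA9–ΔDNA (from 8), AHR genes called were 0 for G-NHA9–8FA (from 1) and 2 for G-NHA9–ΔDNA (from 4), clock genes called were 5 for G-NHA9Midi–21FGAA (from 3) and 3 for G-NHA9–ΔDNA (from 5). With DESeq2, other bHLH-PAS genes called were 2 for G-NHA9–21FGAA (from 1), HIF regulators called were 2 for G-NHA9–8FA (from 1), clock genes called were 5 for G-NHA9Midi–21FGAA (from 3). With RLE size factors, HIF regulators called were 2 for G-NHA9–8FA (from 1). Without TMM factors, members called were 2 for G-NHA9–ΔDNA (from 1), 1 for G-NHA9–8FA against G-NHA9 (from 0) and 2 for G-NHA9Midi against G-NHA9–8FA (from 1), other bHLH-PAS genes called were 1 for G-NHA9 (from 2), 1 for G-NHA9–8FA (from 2) and 0 for G-NHA9–21FGAA (from 1), HIF regulators called were 2 for G-NHA9 (from 0), 2 for G-NHA9Midi (from 1), 3 for G-NHA9–21FGAA (from 0) and 1 for G-NHA9Midi–21FGAA (from 0), clock genes called were 3 for G-NHA9–ΔDNA (from 5). With a minimum mean of 1 CPM, other bHLH-PAS genes called were 1 for G-NHA9 (from 2), 0 for G-NHA9Midi–21FGAA (from 1) and 0 for G-NHA9–ΔDNA (from 1), HIF regulators called were 2 for G-NHA9–8FA (from 1) and 2 for G-NHA9Midi (from 1). Without a filter, members called were 1 for G-NHA9Midi–21FGAA (from 2), other bHLH-PAS genes called were 1 for G-NHA9 (from 2), 1 for G-NHA9–8FA (from 2) and 0 for G-NHA9–21FGAA (from 1), HIF regulators called were 0 for G-NHA9Midi (from 1), HIF targets called were 5 for G-NHA9–21FGAA (from 8), AHR genes called were 0 for G-NHA9–8FA (from 1) and 1 for G-NHA9Midi–21FGAA (from 3), clock genes called were 3 for G-NHA9 (from 5). With a replicate block, members called were 4 for G-NHA9Midi–21FGAA (from 2), 3 for G-NHA9–ΔDNA (from 1), 1 for G-NHA9–8FA against G-NHA9 (from 0) and 2 for G-NHA9Midi against G-NHA9–8FA (from 1), other bHLH-PAS genes called were 2 for G-NHA9–21FGAA (from 1), HIF regulators called were 1 for G-NHA9 (from 0), 3 for G-NHA9–8FA (from 1), 4 for G-NHA9Midi (from 1) and 1 for G-NHA9–21FGAA (from 0), AHR genes called were 8 for G-NHA9 (from 5) and 8 for G-NHA9Midi (from 4), clock genes called were 9 for G-NHA9 (from 5), 8 for G-NHA9–21FGAA (from 3) and 7 for G-NHA9Midi–21FGAA (from 3). Without libraries 4 and 5, members called were 3 for G-NHA9–8FA (from 6), 2 for G-NHA9–21FGAA (from 4), 1 for G-NHA9Midi–21FGAA (from 2), 1 for G-NHA9–8FA against G-NHA9 (from 0) and 2 for G-NHA9Midi against G-NHA9–8FA (from 1), other bHLH-PAS genes called were 1 for G-NHA9 (from 2), 1 for G-NHA9–8FA (from 2), 0 for G-NHA9Midi–21FGAA (from 1) and 2 for G-NHA9–ΔDNA (from 1), HIF regulators called were 1 for G-NHA9 (from 0), 0 for G-NHA9–8FA (from 1), 2 for G-NHA9Midi (from 1) and 2 for G-NHA9–ΔDNA (from 0), HIF targets called were 5 for G-NHA9–8FA (from 10), 5 for G-NHA9–21FGAA (from 8) and 1 for G-NHA9Midi–21FGAA (from 6), AHR genes called were 0 for G-NHA9–8FA (from 1) and 7 for G-NHA9Midi (from 4), clock genes called were 3 for G-NHA9 (from 5) and 3 for G-NHA9–8FA (from 6). Leaving out 1 library at a time moved the number of members called for G-NHA9–21FGAA (2 to 4), G-NHA9Midi–21FGAA (1 to 3), G-NHA9–ΔDNA (1 to 2), G-NHA9–8FA against G-NHA9 (0 to 1) and G-NHA9Midi against G-NHA9 (1 to 3). It moved that of other bHLH-PAS genes for G-NHA9 (1 to 3), G-NHA9–8FA (1 to 2), G-NHA9–21FGAA (0 to 2), G-NHA9Midi–21FGAA (0 to 1) and G-NHA9–ΔDNA (0 to 1). It moved that of HIF regulators for G-NHA9 (0 to 1), G-NHA9–8FA (0 to 3), G-NHA9Midi (0 to 3) and G-NHA9–ΔDNA (0 to 2). It moved that of HIF targets for G-NHA9–21FGAA (4 to 12), G-NHA9Midi–21FGAA (1 to 9) and G-NHA9–ΔDNA (4 to 10). It moved that of AHR genes for G-NHA9 (3 to 5), G-NHA9–8FA (0 to 1) and G-NHA9Midi–21FGAA (1 to 4). It moved that of clock genes for G-NHA9 (3 to 5), G-NHA9–21FGAA (2 to 5), G-NHA9Midi–21FGAA (1 to 3) and G-NHA9–ΔDNA (2 to 5). The sign of log2 fold changes that passed in neither setting turned without libraries 4 and 5 for Ahr with G-NHA9–8FA (-0.121), Ahr with G-NHA9–21FGAA (0.184), Npas2 with G-NHA9Midi–21FGAA (0.13), Arnt with G-NHA9–8FA against G-NHA9 (0.085), Arnt with G-NHA9Midi against G-NHA9 (0.014), Ahr with G-NHA9–21FGAA against G-NHA9–8FA (0.305) and Ahrr with G-NHA9Midi against G-NHA9–21FGAA (-0.095), without TMM factors for Hif1a with G-NHA9–21FGAA (0.146), Ahr with G-NHA9–21FGAA (0.145), Ahr with G-NHA9Midi–21FGAA (0.004), Npas2 with G-NHA9Midi–21FGAA (0.112), Arntl with G-NHA9–ΔDNA (0.113), Hif1a with G-NHA9–8FA against G-NHA9 (-0.085), Ahrr with G-NHA9–8FA against G-NHA9 (-0.038), Ahr with G-NHA9–21FGAA against G-NHA9–8FA (0.047) and Arnt with G-NHA9Midi against G-NHA9–8FA (0.001), without a filter for Ahr with G-NHA9–21FGAA (0.004) and Npas2 with G-NHA9Midi–21FGAA (0.012). It also turned without single libraries for Ahr with G-NHA9–8FA (-0.064 to 0.116), Hif1a with G-NHA9–21FGAA (-0.129 to 0.038), Ahr with G-NHA9–21FGAA (-0.184 to 0.060), Clock with G-NHA9Midi–21FGAA (-0.107 to 0.078), Npas2 with G-NHA9Midi–21FGAA (-0.239 to 0.173), Arntl with G-NHA9–ΔDNA (-0.064 to 0.045), Arnt with G-NHA9–8FA against G-NHA9 (-0.065 to 0.014), Hif1a with G-NHA9–8FA against G-NHA9 (-0.046 to 0.128), Ahrr with G-NHA9–8FA against G-NHA9 (-0.029 to 0.153), Clock with G-NHA9Midi against G-NHA9 (-0.011 to 0.216), Arnt with G-NHA9–21FGAA against G-NHA9 (-0.050 to 0.076), Epas1 with G-NHA9–21FGAA against G-NHA9 (-0.140 to 0.258), Arnt with G-NHA9–21FGAA against G-NHA9–8FA (-0.027 to 0.078) and Ahr with G-NHA9–21FGAA against G-NHA9–8FA (-0.237 to 0.048).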

Other observations

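Scaled to exon length, the members of Empty ranged from Hif1a at 41.2 ± 4.09 CPM per kb (SD, n = 5) to Npas2 at 0.514 ± 0.201 CPM per kb. Between them lay Arnt (8.51 ± 1.52), Clock (4.84 ± 0.649), Ahrr (4.34 ± 0.560), Ahr (3.56 ± 0.648), Arnt2 (3.35 ± 0.586), Epas1 (1.44 ± 0.805) and Arntl (1.41 ± 0.157). In G-NHA9Midi the level of Arnt2, at 0.169 ± 0.0643 CPM per kb, was close to that of Npas2, at 0.161 ± 0.0522 CPM per kb. In G-NHA9 it was at 0.227 ± 0.0611 CPM per kb, below Npas2 at 0.328 ± 0.0393 CPM per kb. Exon lengths are those of all annotated transcripts merged, so these are levels per annotated base.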
